A study of Mus musculus with 4 samples.

Results

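The RecQ helicases are a family of DNA-unwinding enzymes with 5 genes in the mouse, Wrn, Blm, Recql, Recql4 and Recql5, and all 5 were found by symbol among the 28649 gene rows of the deposited table. The family was selected on the values of the comparison described here, in which Wrn stood apart from its paralogs, so its levels and folds are a description and no p-value is given for a member. All 5 passed the filter on low counts, as did 15240 genes in all.

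RNA was captured with a biotin-tagged microRNA mimic and sequenced, to find transcripts that miR-206 binds. The cells were fibro-adipogenic progenitors (FAPs), mesenchymal cells of muscle, sorted as Sca1+ cells from skeletal muscle of C57Bl/6 wild-type mice. The 2 groups were FAPs transfected with a miR-206 mimic (miR-206 pulldown, 2 libraries) and FAPs transfected with a control mimic (miR-Control pulldown, 2 libraries). Every culture was transfected for 24 hours, and capture followed after a further 48 hours in basal medium (10% horse serum). The sources used here give no age for the mice. Nothing ties the replicates to separate mice or cultures, so errors and p-values measure the spread between these libraries, which may be technical. A level in a pulldown was not set against the level of the transcript in the whole cell, because no library of unselected RNA was analysed here. Fewer cells of a type and less RNA per cell cannot be told apart in such bulk samples.

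RecQ helicases unwind DNA at stalled replication forks, at recombination intermediates and at telomeres, and they keep the genome stable in dividing cells. Loss of WRN, BLM or RECQL4 in humans causes the inherited disorders Werner syndrome, Bloom syndrome and Rothmund-Thomson syndrome. A microRNA guides an Argonaute protein to transcripts that pair with its seed, bases 2 to 8 from the 5′ end. A tagged mimic is used to pull down the transcripts held in such complexes. miR-206 is made mainly in skeletal muscle. Its annotated mature strand is shown because the pulldown depends on it, with the seed in capitals (RefSeq, GRCm38.p6, chr1:20679055-20679076, plus strand, 22 bases).
mmu-miR-206-3p: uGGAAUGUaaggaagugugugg
A transcript that pairs with the whole seed holds the letters ACATTCC. Transcript sequences were not analysed here, so no site was looked for in a RecQ transcript, and the sources used here give no sequence for the transfected mimics.

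The libraries held 14566568 and 15426666 estimated counts (miR-206) and 8883197 and 14261566 (miR-Control). Of the 15240 genes tested, 15.3% were called enriched and 6.19% depleted in the miR-206 pulldown, 21.5% in all (edgeR quasi-likelihood test, adjusted p under 0.05 after Benjamini-Hochberg adjustment). The normalised levels of the groups did not overlap, with miR-206 higher, for 29.7% of genes and, with miR-206 lower, for 32.3%. The median log2 fold of all tested genes was -0.11, and it was -1.22 with scaling to total counts, where 13.4% of calls were enriched, against 71.1% with TMM, the trimmed-mean scaling used throughout.

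Of 10 FAP markers, all present in the table, 3 were enriched and 1 was depleted. Ly6a, which encodes Sca1, did not pass, with 1435 and 1498 TPM (a level per transcript length) in the miR-206 libraries and 1439 and 1944 TPM in the miR-Control libraries. The enriched markers were Cd34 (log2 fold 3.49), Thy1 (2.92) and Dpt (1.66), and the depleted one was Lum (-1.20). Cd34 and Thy1 passed in all 13 alternatives, while Dpt lost its call with total counts and TPM, and Lum without miR-206 replicate 2 or miR-Control replicate 2 (-0.64 without the second). Among markers of other cells, 8 endothelial genes summed to 38.9 and 37.4 TPM (miR-206) and to 87.4 and 39.2 TPM (miR-Control), and 8 immune genes to 4.94 and 6.44 TPM (miR-206) and to 20.8 and 10.3 TPM (miR-Control). The 8 myogenic genes summed to 43.5 and 28.1 TPM (miR-206) and to 39.4 and 36.8 TPM (miR-Control), and 8 pericyte and smooth muscle genes to 132 and 87.1 TPM (miR-206) and to 75.1 and 75.8 TPM (miR-Control). Summed levels do not show each marker. In the endothelial list 2 were enriched, Erg (4.30) and Cdh5 (2.40), although the sum was lower with miR-206. In the myogenic list the enriched ones were Myod1 (3.10) and Myog (0.98), and in the pericyte and smooth muscle list Abcc9 (4.92) and Rgs5 (4.63). Rgs5, a pericyte gene, had 71.2 and 37.7 TPM with miR-206, against 3.56 and 4.85 TPM with miR-Control. Erg, Abcc9 and Rgs5 passed in all 13 alternatives. Cdh5 and Myod1 lost their calls with total counts, and Cdh5 also with TPM and without miR-206 replicate 2. Myog lost its call in 6 alternatives and turned to -0.16 with total counts. Of these 32 markers, 0 were at 0 in all libraries and 8 were at 0 in at least 1, among them Cd3e of T cells in both miR-206 libraries and Pax7 of muscle stem cells in miR-Control replicate 2. The part of other cells in the RecQ values was not tested.

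Wrn encodes a helicase that also carries an exonuclease, and it was the RecQ transcript that was high in the miR-206 pulldown. The row carries the transcript identifier ENSMUST00000033991, and RefSeq places the gene on chromosome 8, from 33234372 to 33385543 in GRCm38.p6, the build of every position given here. Wrn had 94.2 and 59.9 TPM with miR-206, against 1.62 and 1.95 TPM with miR-Control. Both miR-206 libraries lay far above both miR-Control libraries, and the lower of the first pair was miR-206 replicate 2. In estimated counts this was 7629 and 5677 for miR-206 and 103 and 172 for miR-Control, so the lower side also rests on more than 100 reads a library. The mean was 77.0 ± 24.3 TPM for miR-206 and 1.79 ± 0.23 TPM for miR-Control (SD, n = 2 each), a 43.1-fold ratio of means. On the normalised CPM scale (counts scaled to library size with the TMM factor) the means were 670 ± 240.4 for miR-206 and 8.10 ± 1.31 for miR-Control (SD, n = 2 each).

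The log2 fold of Wrn was 6.37 ± 0.45 (SE, edgeR), with a 95% interval from 5.42 to 7.31. That placed it 34th from the top among the 15240 tested genes, with 0.217% of genes having a higher fold. In the authors' deposited table its log2 fold of mean TPM was 5.43, rank 17 of 14870 rows. The authors' deposited table gives -1.79 for Recql, -1.90 for Recql5 and -1.16 for Blm, for which the miR-206 mean was below 1 TPM and set to 0. By TPM, Wrn ranked near the top of the table in the miR-206 libraries, where 97.3% and 96.0% of all rows had a lower TPM. In the miR-Control libraries it was near the middle of all rows, with 53.6% and 59.2% lower. The 28649 rows include those under the count filter, which 15240 passed, so this is not the middle of the tested genes. Of the 13 alternative settings, all 13 kept Wrn past the threshold, with log2 folds from 4.77 to 6.70. This reading of the fold against the threshold is a description, since Wrn was chosen with that contrast known.

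**Figure D1:**
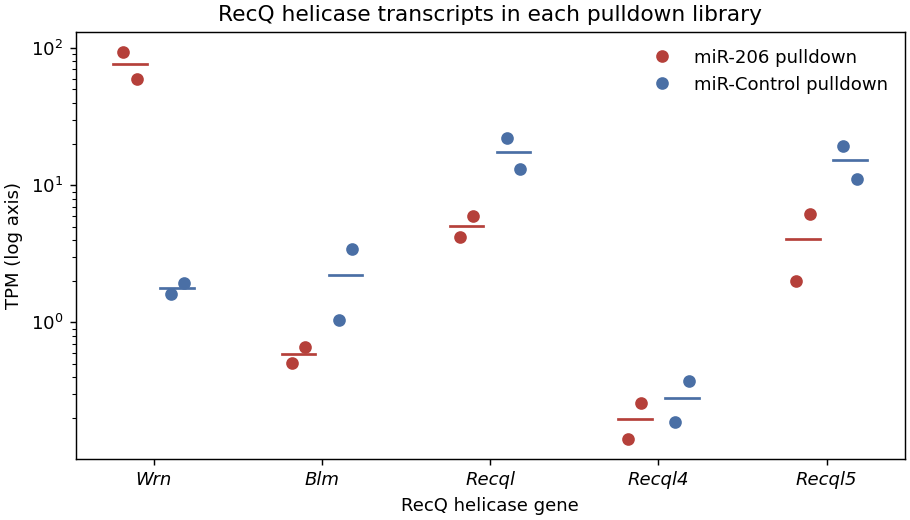
TPM of the RecQ helicase genes in each library on a log axis, with miR-206 libraries to the left (red) and miR-Control libraries to the right (blue). Each point is 1 library and each bar the mean of 2. Wrn lies at 94.2 and 59.9 TPM with miR-206 and at 1.62 and 1.95 TPM with miR-Control. The means of the other genes are lower with miR-206 than with miR-Control in TPM. On this scale the median log2 fold of all tested genes was -0.70 (limma, pseudocount of 1). With TMM scaling the log2 fold of Recql4 was 0.44 (edgeR).

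Recql encodes a helicase that restarts stalled replication forks, and it was the most abundant RecQ transcript per length in the miR-Control pulldown. Its row carries ENSMUST00000128082, and the gene lies on chromosome 6 from 142350342 to 142387100. It had 4.19 and 5.96 TPM in the miR-206 libraries, against 22.0 and 13.1 TPM in the miR-Control libraries. Both miR-206 libraries were lower. In normalised CPM the groups did not overlap, as for 32.3% of all tested genes with miR-206 lower. Recql had 7.48 and 6.87 normalised CPM for miR-206 and 16.1 and 10.8 for miR-Control. The log2 fold was -0.90 ± 0.40 (SE, edgeR), with a 95% interval from -1.76 to -0.05, and it did not pass the threshold. It was negative in all 13 alternatives, from -2.05 to -0.56, and past the threshold in 4. Among these were total counts and TPM in limma at pseudocounts of 1 and 0.1. Over all 15240 tested genes, these settings called 6909, 5860 and 5842 depleted. Where a library is left out, its group has 1 library, which is assumed to vary like those of the other group, so a call can be lost at an unchanged fold. One of the 4 was the fit without miR-Control replicate 2, with a log2 fold of -1.13, and the fit without miR-Control replicate 1 gave -0.56.

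Recql5 encodes a helicase that binds RNA polymerase II. Its row carries ENSMUST00000144824, and the gene lies on chromosome 11 from 115892595 to 115933514. It had 2.01 and 6.17 TPM in the miR-206 libraries, against 19.3 and 11.1 TPM in the miR-Control libraries. In normalised CPM the groups did not overlap, with miR-206 lower, as for 32.3% of all tested genes. The miR-206 libraries differed between themselves, at 25 and 95 estimated counts, against 180 and 215 for miR-Control. The log2 fold was -1.09 ± 0.49 (SE, edgeR; 95% interval from -2.13 to -0.04), which did not pass the threshold. It was negative in all 13 alternatives and past the threshold in 5. These included total counts, TPM in limma at pseudocounts of 1 and 0.1, and the replicate block. The same settings called 6909, 5860, 5842 and 1129 of all 15240 tested genes depleted. One library decided its size: the log2 fold was -2.10 without miR-206 replicate 2 (past the threshold) and -0.56 without miR-206 replicate 1 (not past it).

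Blm encodes the helicase that resolves crossed recombination intermediates together with topoisomerase III alpha. Its row carries ENSMUST00000170315, and the gene lies on chromosome 7 from 80454993 to 80535148. It had 0.510 and 0.668 TPM in the miR-206 libraries, against 1.04 and 3.42 TPM in the miR-Control libraries. Both miR-206 libraries were lower in TPM, where the median log2 fold of all tested genes was -0.70 (limma, pseudocount of 1). In normalised CPM the groups overlapped, with 3.30 and 4.05 for miR-206 and 3.34 and 11.5 for miR-Control. The high value was miR-Control replicate 2, with 219 estimated counts against 48 in replicate 1, and the miR-206 libraries had 30 and 46. The log2 fold was -1.01 ± 0.60 (SE, edgeR; 95% interval from -2.28 to 0.25). Without miR-Control replicate 2 it was 0.18, and without miR-Control replicate 1 it was -1.62 and past the threshold.

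Recql4 encodes a helicase needed to start DNA replication, and it was the least abundant RecQ transcript in every library. Its row carries ENSMUST00000036852, and the gene lies on chromosome 15 from 76703553 to 76710616. It had 0.141 and 0.257 TPM in the miR-206 libraries, against 0.189 and 0.375 TPM in the miR-Control libraries. The groups overlapped. These levels rest on 7 and 15 estimated counts for miR-206 and on 7.34 and 20.3 for miR-Control, so a difference of a few-fold was not detectable at this depth: the log2 fold was 0.44 ± 1.07 (SE, edgeR) with a 95% interval from -1.83 to 2.70. Its sign changed with the scaling, with -0.60 under total counts, although relative to the median of all genes it was positive in all 12 alternatives that gave a value, from 0.07 to 1.20.

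Of the 5 RecQ genes, 1 was called enriched, beside 15.3% of all tested genes, and 0 were called depleted, beside 6.19%. DESeq2 gave no adjusted p for Recql4 and called 0 of the other RecQ genes depleted, beside 872 of all 15240 tested genes. In these counts a gene without an adjusted p is not called. Limma on TPM (pseudocount of 1) called 2 depleted, beside 5860 of all tested genes. The median log2 fold of the 5 was -0.90, and the mean of the 4 paralogs of Wrn was -0.64, with a range from -1.09 to 0.44. Wrn lay 7.01 above that mean on the log2 scale. Read against the median of all genes, the log2 fold of Wrn was 6.47 and stayed between 5.47 and 6.92 in the alternatives, while Recql was at -0.80 (from -1.07 to -0.52) and Recql5 at -0.98 (from -1.89 to -0.39). Blm was at -0.91 and ranged from -1.57 to 0.24.

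**Figure D2:**
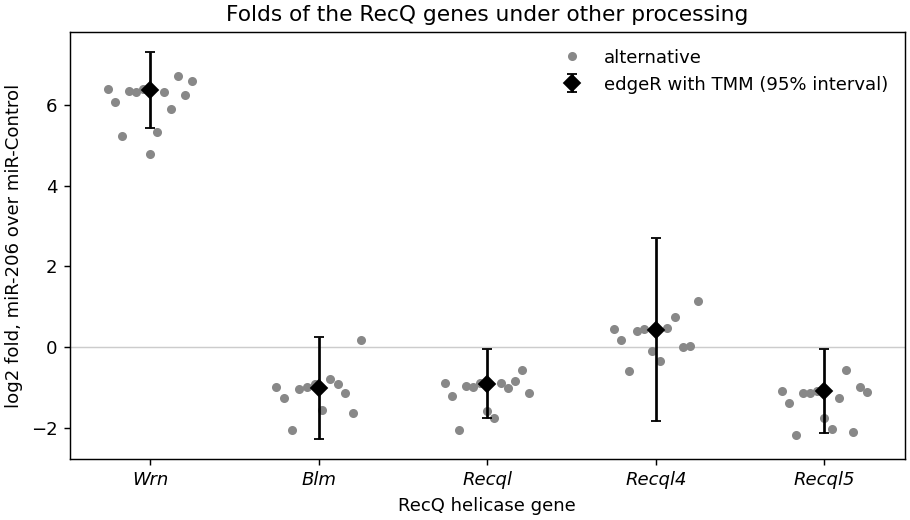
Log2 fold of each RecQ gene, miR-206 over miR-Control, with the edgeR value and its 95% interval (black diamonds) and the values under up to 13 alternative settings (grey points). The alternatives for Wrn lie between 4.77 and 6.70, and those for the paralogs between -2.16 and 1.13.

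The make-up of the family within a library does not depend on how libraries are scaled to each other. Wrn held 93.2% and 82.1% of the summed RecQ TPM with miR-206 and 3.67% and 6.51% with miR-Control. The order of levels per length in the miR-Control libraries was led by Recql (49.8% and 43.8%) and Recql5 (43.7% and 37.0%). Recql was the higher in both libraries, by less TPM than either gene differed between these libraries. Below Recql and Recql5 lay Wrn and Blm (2.36% and 11.4%), whose order differed between the replicates. Recql4 was last, with 0.426% and 1.25%. In the miR-206 libraries Wrn came first. Recql (4.14% and 8.17%) and Recql5 (1.99% and 8.46%) followed in an order that differed between the replicates, then Blm (0.505% and 0.916%), then Recql4 (0.139% and 0.353%).

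In estimated counts, which follow transcript length as well, Wrn was 98.3% (95% exact Clopper-Pearson interval 98.0% to 98.6%) and 96.0% (95.5% to 96.5%) of the RecQ counts in the miR-206 libraries. In the miR-Control libraries it was 18.1% (15.0% to 21.5%) and 20.7% (18.0% to 23.6%). These intervals treat the reads of a library as independent draws, although reads were not counted as single molecules. They do not cover the spread between libraries, and those of the 2 miR-206 libraries did not overlap. The ratio of Wrn to its 4 paralogs together was 3.78 and 2.20 in log2 TPM for miR-206 and -4.72 and -3.84 for miR-Control. Both replicates of a group lay on the same side, and the 2 miR-206 libraries differed from each other more than the 2 miR-Control libraries did.

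**Figure D3:**
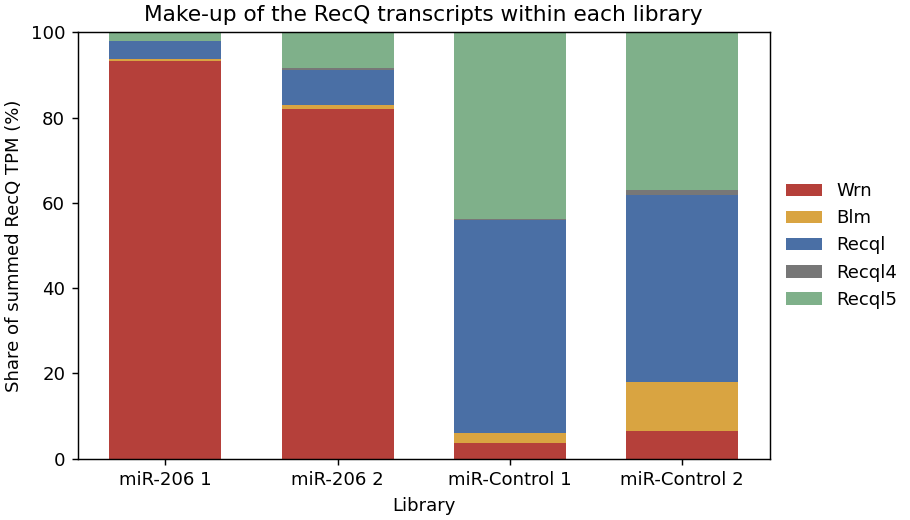
Share of the summed RecQ TPM held by each gene within each library, as stacked bars that add to 100%. Wrn holds 93.2% and 82.1% of the bar in the miR-206 libraries and 3.67% and 6.51% in the miR-Control libraries, where Recql and Recql5 fill most of it.

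The deposited counts and TPM together show how long the transcripts behind each row were, because a count divided by its TPM is proportional to the effective length used. After division by the library median of this ratio over 9402 genes with at least 50 counts in every library, Wrn stood at 2.50 and 2.54 in the miR-206 libraries and at 2.62 and 2.57 in the miR-Control libraries. Its highest and lowest values differed 1.04-fold. Blm (1.82 and 1.85 for miR-206, 1.90 and 1.87 for miR-Control) and Recql4 (1.54 and 1.56 for miR-206, 1.61 and 1.58 for miR-Control) were as even. These 3 rows therefore kept the same implied length in every library, and Wrn had the longest of the family.

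Recql and Recql5 had short implied lengths that varied. Recql was at 0.499 and 0.353 in the miR-206 libraries and at 0.434 and 0.454 in the miR-Control libraries, a 1.41-fold range. Recql5 was at 0.385 and 0.413 in the miR-206 libraries and at 0.385 and 0.564 in the miR-Control libraries, a 1.47-fold range. Over the 9402 genes the median range was 1.07-fold, and 87.1% and 89.2% of them had a smaller range than Recql and Recql5. Which transcripts lie behind these 2 rows, and their part in the folds, was not tested. The single transcript identifier of a row does not give the whole length behind it.

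**Figure D4:**
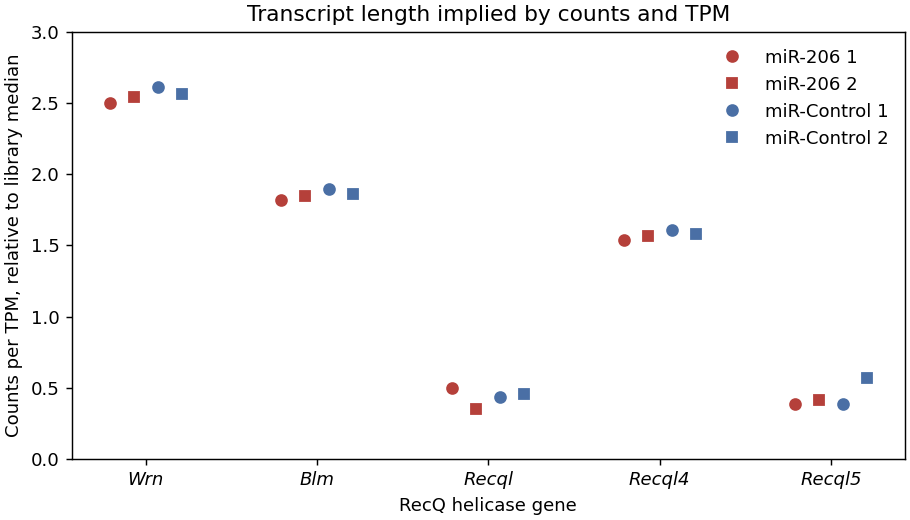
Estimated counts divided by TPM for each RecQ gene and library, relative to the library median over 9402 genes, which is proportional to the effective transcript length. Wrn, Blm and Recql4 hold their value across libraries, while Recql ranges 1.41-fold and Recql5 1.47-fold.

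Genes beside the RecQ genes were read off as a check on reads that neighbours could share. Purg, a gene of the PUR family of nucleic-acid-binding proteins, begins 75 bases from the end of the annotated Wrn span (chromosome 8, 33385619 to 33417472). Purg had 40 and 44 estimated counts in the miR-206 libraries and 92 and 57 in the miR-Control libraries, and its log2 fold was -0.18 with an SE of 0.60, which did not pass (edgeR adjusted p = 0.869). The nearest annotated gene on the other side of Wrn, the pseudogene Gm6877, lies 42039 bases away and was listed at 0 in all 4 libraries. No annotated gene overlaps Wrn.

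The paralogs do have overlapping neighbours. Recql overlaps Pyroxd1, an oxidoreductase gene, which had a log2 fold of -0.78 ± 0.46 (edgeR adjusted p = 0.259), and Golt1b, a Golgi transport gene 110 bases away, had -0.07 ± 0.34 (adjusted p = 0.904). Recql4 overlaps Lrrc14 by its end, and Lrrc14 was enriched, at 28.6 and 35.7 normalised CPM for miR-206 and 14.1 and 14.5 for miR-Control (log2 fold 1.17 ± 0.31, edgeR adjusted p = 0.0116), a call lost without miR-206 replicate 2 (1.01, 0.173), with total counts (0.875) and with TPM in limma (0.203). It also overlaps Mfsd3, a transporter-like gene at -0.93 ± 0.52 (adjusted p = 0.232). Recql5 spans Smim5 and Smim6, which were under the count filter, and touches Myo15b, a myosin gene, at -1.57 ± 0.89 (adjusted p = 0.240). Sap30bp, 63 bases from Recql5, had 0.15 ± 0.33 (adjusted p = 0.795). The pseudogene Ndufab1-ps, with no value here, lies inside Blm, and Gm15544, the nearest gene before it, had -0.88 ± 1.27 (adjusted p = 0.679). The sources used here do not say whether the counting used strand, so reads of overlapping genes could not be assigned with certainty. The remaining neighbours were low: Gpt and Lrrc24 beside Recql4 had log2 folds of 0.76 ± 1.19 and -0.06 ± 0.72, Llgl2 beside Recql5 had 1.84 ± 1.06, none past the threshold, and Slco1a5 beside Recql was under the filter.

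The 3 genes whose profile over the 4 libraries was most like that of Wrn were Triobp, Ece1 and Wdr46. Likeness was the root mean square difference of log2 normalised CPM after centring each gene, searched over 8600 genes that averaged 10 or more normalised CPM, and it rests on 4 libraries in 2 groups. Triobp, which encodes an actin-binding protein, differed by 0.053 and had 7088 and 4241 normalised CPM for miR-206, against 56.9 and 73.0 for miR-Control. Ece1, the endothelin-converting enzyme gene, differed by 0.070, with 11722 and 7176 normalised CPM for miR-206 and 102 and 116 for miR-Control. Wdr46, which encodes a nucleolar protein, differed by 0.117, with 1206 and 711 for miR-206 and 11.1 and 15.8 for miR-Control. Like Wrn, all 3 were lower in miR-206 replicate 2 than in miR-206 replicate 1. They were chosen for likeness over these same libraries, so this shared order is no separate result.

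Other genes of genome maintenance were set beside the family in 5 lists, which held 76 tested genes. Together 6 were enriched (7.89%) and 5 depleted (6.58%), beside 15.3% and 6.19% of all tested genes, and their median log2 fold was -0.56, beside -0.11 for all. None of the 76 reached the log2 fold of Wrn, and the highest was 5.06, for Xrcc3. The enriched share and the median lay below those of all tested genes, and the depleted share was near that of all tested genes. The lists were written with earlier results of these data known, so these shares are a description. Counts at an unadjusted p under 0.05 stand below without a share over all genes, so nothing is read from them.

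The partners of BLM resolve recombination intermediates or coat single-stranded DNA. Of 6 tested, 1 was enriched and 0 were depleted in edgeR (1 at an unadjusted p under 0.05, 0 in DESeq2 and 3 in limma on TPM), beside 15.3% and 6.19% of all tested genes, with a median log2 fold of -0.21. With total counts 0 were enriched and 5 depleted, beside 1070 and 6909 of all 15240 tested genes. Limma on TPM called 5860 of all tested genes depleted. Rmi1, a scaffold of the BLM complex, had 374 and 467 estimated counts for miR-206 and 184 and 398 for miR-Control, a log2 fold of 1.28 ± 0.32 (edgeR adjusted p = 0.00706). Top3a, the topoisomerase of the complex, had 0.480 and 1.31 TPM for miR-206 and 3.29 and 4.12 TPM for miR-Control and did not pass (-0.73 ± 0.59, edgeR adjusted p = 0.429). The call of Rmi1 was lost with total counts (0.20, adjusted p = 0.603) and with TPM in limma (0.35, 0.376).

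Of 21 tested partners of WRN, genes of end joining, telomeres, base repair and damage signalling, 2 were enriched, 1 was depleted and 18 did not pass (9.52% and 4.76%, beside 15.3% and 6.19% of all tested genes), with a median log2 fold of -0.61. These counts moved with the scaling, as did those of all 15240 tested genes. With total counts 0 of the partners were enriched and 16 depleted, beside 1070 and 6909 of all tested genes. In limma on TPM these numbers were 0 and 13, beside 1093 and 5860. Those enriched with TMM were Terf2 and Rad50. Terf2, a telomere-binding protein gene, had a log2 fold of 1.42 ± 0.38 (edgeR adjusted p = 0.0129). Rad50, of the complex that senses broken ends, had 1.19 ± 0.32 (edgeR adjusted p = 0.0121). The depleted one was Pold1, the catalytic subunit of DNA polymerase delta (-1.16 ± 0.35, edgeR adjusted p = 0.0230). Xrcc5 and Xrcc6, the Ku subunits that bind the WRN protein, had log2 folds of -0.93 ± 0.47 and -0.76 ± 0.48, and Wrnip1, a WRN-interacting ATPase gene, of -0.56 ± 0.40, none past the threshold. Terf2 and Rad50 were no longer called when miR-206 replicate 1 was left out (log2 folds 1.11 and 0.86, edgeR adjusted p = 0.137 and 0.341) and with upper quartile scaling, total counts and TPM, where Rad50 turned to -0.06 at a pseudocount of 1. Pold1 did not pass without miR-206 replicate 1 (-1.05, edgeR adjusted p = 0.221) or 2 (-1.31, 0.0836), where its log2 fold was close to that of all 4 libraries, or without miR-Control replicate 2 (-0.83, 0.104).

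Among 18 tested DNA helicases of other families, 0 were enriched in edgeR (0 at an unadjusted p under 0.05, 0 in DESeq2 and 0 in limma on TPM) and 3 were depleted (16.7%, beside 6.19% of all tested genes), with a median log2 fold of -0.67. Depleted helicases numbered 2 in DESeq2, beside 872 of all 15240 tested genes in DESeq2. They numbered 8 in limma on TPM, beside 5860 of all tested genes, and 14 with total counts, beside 6909. The 3 called in edgeR were Rtel1, Mcm8 and Ercc3. Rtel1, which unwinds telomere loops, had a log2 fold of -1.56 ± 0.44 (edgeR adjusted p = 0.0155). Mcm8, of a recombination helicase, had -2.27 ± 0.65 (edgeR adjusted p = 0.0182). Ercc3, a subunit of the repair and transcription factor TFIIH, had -1.11 ± 0.36 (edgeR adjusted p = 0.0361). All 3 had low counts for miR-206, with 35 and 77 for Rtel1, 10.4 and 17.5 for Mcm8 and 72 and 96 for Ercc3. Without miR-206 replicate 1 none of them passed, at log2 folds of -1.26 for Rtel1, -2.12 for Mcm8 and -1.11 for Ercc3 (edgeR adjusted p = 0.213, 0.214 and 0.267). Without miR-206 replicate 2, Mcm8 (-2.50, edgeR adjusted p = 0.113) and Ercc3 (-1.15, 0.211) did not pass either. The folds of Mcm8 and Ercc3 were thus close to those of all 4 libraries in both fits. Rtel1 did not pass without miR-Control replicate 2 (-1.09, edgeR adjusted p = 0.120), nor did Ercc3 in DESeq2 (-1.09, adjusted p = 0.0508).

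Homologous recombination held the repair gene with the fold nearest to that of Wrn. Xrcc3, a gene of strand-exchange repair, had 104 and 85.4 TPM for miR-206, against 8.85 and 8.68 TPM for miR-Control, a log2 fold of 5.06 ± 0.37 (edgeR adjusted p = 8.3e-08) that passed in all 13 alternatives. Of 21 tested genes of this list, 3 were enriched and 0 depleted in edgeR (1 at an unadjusted p under 0.05, 0 in DESeq2 and 6 in limma on TPM), beside 15.3% and 6.19% of all tested genes, with a median log2 fold of -0.03. With total counts 1 was enriched and 10 were depleted, beside 1070 and 6909 of all 15240 tested genes. Over all tested genes, limma on TPM called 5860 depleted. Palb2, the partner of BRCA2, had 2.15 ± 0.47 (edgeR adjusted p = 0.00242), and Slx4, a scaffold of structure-specific nucleases, 1.38 ± 0.36 (edgeR adjusted p = 0.00956). Both lost their calls with total counts (0.98, adjusted p = 0.155, for Palb2 and 0.30, 0.485, for Slx4) and with TPM in limma, and Slx4 also without miR-206 replicate 1 (1.21, 0.0926).

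Of 10 tested Fanconi anaemia genes, which repair cross-linked DNA, 0 were enriched in edgeR (0 at an unadjusted p under 0.05, 0 in DESeq2 and 0 in limma on TPM) and 1 was depleted (10.0%, beside 6.19% of all tested genes), with a median log2 fold of -0.63. Depleted genes of this list numbered 1 in DESeq2, beside 872 of all 15240 tested genes in DESeq2. They numbered 8 in limma on TPM, beside 5860 of all tested genes, and 8 with total counts, beside 6909. The one called in edgeR was Fancb, at 5 and 5 estimated counts for miR-206 and 24 and 106 for miR-Control (-2.86 ± 0.96, edgeR adjusted p = 0.0426). It did not pass without miR-206 replicate 1 (-3.04, edgeR adjusted p = 0.214) or 2 (-2.67, 0.235), at a log2 fold close to that of all 4 libraries. Without miR-Control replicate 2 the log2 fold was -1.70 (edgeR adjusted p = 0.425), and with a replicate block it was -2.64 (0.0715). Fan1 was listed at 0 in all 4 libraries.

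Genes of proliferating cells are given beside the family, since Blm and Recql4 serve DNA replication. Of 20 tested, 1 was enriched and 4 were depleted (5.00% and 20.0%, beside 15.3% and 6.19% of all tested genes), with a median log2 fold of -0.59. Depleted genes of this list numbered 10 with the upper quartile, 16 with total counts, 14 in limma on TPM, 3 in DESeq2 and 2 to 7 with 1 library left out (2 without miR-206 replicate 2, 7 without miR-Control replicate 1). Over all 15240 tested genes, depleted ones numbered 1962 with the upper quartile, 6909 with total counts, 5860 in limma on TPM and 872 in DESeq2. Ccnb1, cyclin B1, was far lower in the miR-206 libraries, with 6.48 and 11.0 TPM, against 1048 and 2172 TPM in the miR-Control libraries. Its log2 fold was -6.64 ± 0.55 (edgeR adjusted p = 1.6e-07). Mcm2, a subunit of the replicative helicase, had -2.64 ± 0.39 (edgeR adjusted p = 7.1e-05), and Ccnb2, cyclin B2, -1.38 ± 0.31 (edgeR adjusted p = 0.00354). In the miR-Control libraries Ccnb1 stood far above Ccnb2, which had 37.0 and 39.0 TPM there and 8.57 and 6.65 TPM with miR-206. The cause of this high Ccnb1 level was not tested. Tpx2, a spindle gene named because it completes the 4, had -1.01 ± 0.33 (edgeR adjusted p = 0.0354), and it did not pass in DESeq2 (adjusted p = 0.0501) or, at a log2 fold close to that of all 4 libraries, without miR-206 replicate 1 (0.180) or 2 (0.134). Without miR-Control replicate 2 its log2 fold was -0.52 (edgeR adjusted p = 0.259). Rrm2, a subunit of ribonucleotide reductase, was enriched at 2.02 ± 0.36 (edgeR adjusted p = 0.000484). Mki67, the proliferation antigen gene, had 4.20 and 3.92 TPM for miR-206 and 5.63 and 4.52 TPM for miR-Control. In normalised CPM, the scale of the fold, its direction was the opposite, with 61.0 and 53.3 for miR-206 and 40.4 and 34.0 for miR-Control, and it did not pass (0.62 ± 0.29, edgeR adjusted p = 0.144). Ccnb2 did not pass without miR-206 replicate 2 (-1.16, edgeR adjusted p = 0.0812). The part of proliferation in the RecQ values was not tested.

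**Figure D5:**
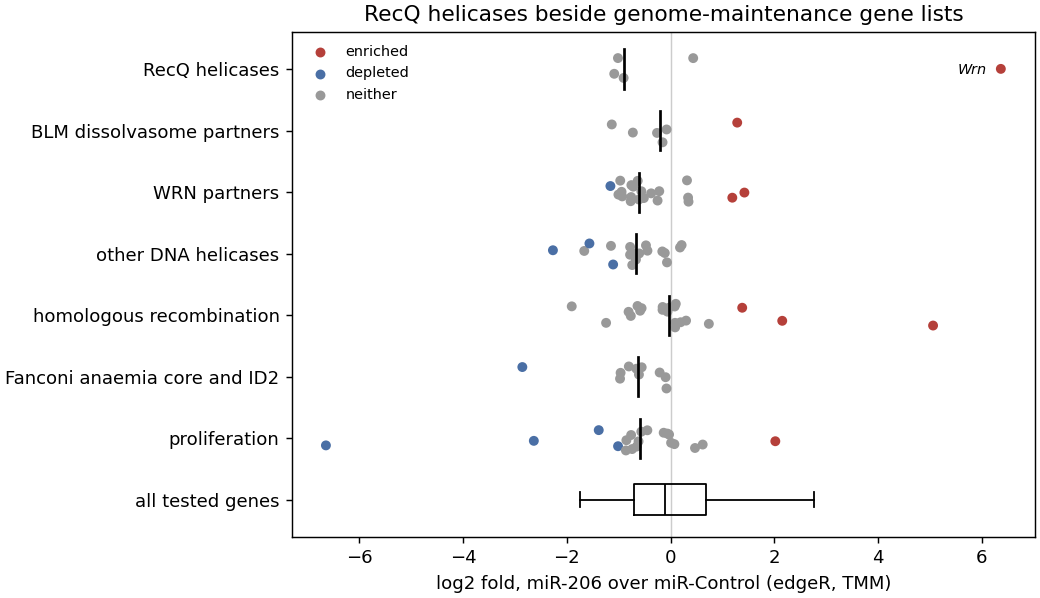
Log2 fold, miR-206 over miR-Control, of the RecQ genes and of 6 gene lists, 1 point a gene, coloured by the edgeR call, with the list median as a black line and all 15240 tested genes as a box (quartiles, whiskers at the 5th and 95th percentiles). Wrn, at 6.37, lies to the right of every listed gene, the nearest being Xrcc3 at 5.06.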

How the data were processed

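Estimated counts and TPM per gene were deposited by the authors, made with kallisto, per the submitters' processing notes, which also name FastQC and the mm10 build. The sources used here give neither versions nor the annotation, nor how transcripts became gene rows. The deposited log2 fold is the authors' difference of log2 mean TPM, with a group mean below 1 set to 0. Libraries were made with SMARTer and Ovation kits, per the labels' protocols. Columns were tied to samples by the barcodes in the titles.

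Estimated counts were rounded and tested with edgeR 4.0.16 (R 4.3.3; glmQLFit and glmQLFTest, robust, TMM scaling, filterByExpr, group as the only term), with Benjamini-Hochberg adjustment over all tested genes. SE is the size of the log2 fold divided by the square root of the F statistic. The procedure was tested on simulated data. Alternatives used DESeq2 1.42.0, limma 3.58.1 on log2(TPM + 1) or log2(TPM + 0.1), other scalings and filters, a replicate block and each library left out.

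Members and lists were chosen with earlier results of these data known. Named genes are the members, their annotated neighbours, the 3 genes most like Wrn and, of each list, up to 4 called genes with the smallest p and a mean of at least 1 normalised CPM; other genes were named after their values were seen. Positions are from RefSeq for GRCm38.p6. One gene of the lists is counted but not reported here by name.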

Additional observations from a re-analysis of the deposited data

How the results depend on the processing

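The log2 fold of Wrn was 6.37 and kept its sign and its side of the threshold in all 13 alternatives. It was lower with total counts (5.23) and with TPM in limma (4.77 at a pseudocount of 1 and 5.32 at 0.1), and 5.90 to 6.70 with 1 library left out. Its distance above the mean of its paralogs was 7.01, and 5.86 with TPM at a pseudocount of 1. RecQ genes called depleted numbered 0, and 3 with total counts, 2 with TPM at either pseudocount, 1 with the replicate block (Recql5) and 0 to 1 with 1 library left out. With at least 50 counts in 2 libraries, Blm and Recql4 were not tested. Over all genes, 2327 were enriched and 944 depleted. Enriched genes numbered 1070 with total counts and 1093 and 1102 with TPM. Depleted genes numbered 1962 with the upper quartile, 6909 with total counts, 5860 and 5842 with TPM and 358 to 1535 with 1 library left out. Of the 76 repair genes, 6 were enriched (1 with total counts, 1 with TPM at either pseudocount, 3 to 7 with 1 library left out) and 5 depleted (10 with the upper quartile, 53 with total counts, 38 and 37 with TPM, 0 to 8 with 1 library left out). The causes were not tested.

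Deviations of libraries with the same replicate number correlated at r = -0.08 across 15240 genes, so the numbers were not taken to pair the libraries. The search for miR-206 sites in transcripts was not run. Counts limit Recql4 in particular, with 7 to 20.3 reads a library.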
